A study of Homo sapiens with 2 samples.

Results

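The receptors and ligands of the epidermal growth factor (EGF) family were examined in PC3 cells, a human line from a prostate cancer metastasis. The members were chosen by name: the receptors EGFR, ERBB2 and ERBB3, the ligands AREG, EREG, HBEGF, TGFA and BTC, and the receptor inhibitor ERRFI1. They and the pathway lists below were chosen with earlier results of these data known. Every probe set that the platform annotation assigns to one of them and to no other gene was taken. Probe sets naming several genes were left out. Of the 9 genes 8 had at least 1, with 29 probe sets in all. They stand among 18392 genes on the arrays used here. AREG had no probe set that names it alone and is not analysed here.

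The fluphenazine array held RNA of PC3 cells treated with 10 µM fluphenazine, a phenothiazine antipsychotic known to block dopamine receptors. The DMSO array held RNA of PC3 cells given only the solvent. Both cultures were the same line, grown in medium with fetal bovine serum, which itself contains growth factors, and the labels do not state the treatment time. There was 1 array per treatment, so no value has an error between cultures and no test between treatments could be made. The signal is that of a whole culture, so fewer expressing cells and less RNA per cell cannot be told apart.

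EGF family ligands are made as membrane-anchored precursors and are released by metalloproteinases, chiefly ADAM17. EGFR (also HER1) binds AREG, EREG, HBEGF, TGFA and BTC, pairs with itself or with ERBB2 or ERBB3, and signals through the RAS-MAP kinase and PI3 kinase pathways. ERRFI1 (MIG6) is induced by EGFR signalling, binds the receptor's kinase domain and inhibits it. In androgen-independent prostate cancer cells such as PC3, EGFR and its ligands are known to form an autocrine loop.

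HBEGF, EGFR and ERRFI1 were higher with fluphenazine, by 1.32-fold, 1.35-fold and 1.30-fold in the probe set with the highest mean signal of each gene. TGFA was 1.13-fold higher. ERBB2 and ERBB3 differed little, at 1.06-fold and 1.03-fold lower, BTC was 1.14-fold lower, and EREG was near the bottom of the signal range on both arrays. A floor on expression was set at the median over all genes of the higher of the 2 log2 signals, 6.19, which is a rank and not a detection call. Of the 8 measured members 7 were above it, all but EREG, and 3 of the 7 were at least 1.2-fold higher, where 4.84% of the 9196 genes above the floor were. Because the members were chosen with earlier results of these data known, this share is a description and no test of an excess. By these probe sets none of the 7 was at least 1.2-fold lower, against 4.69% of all genes, and 0 of 7 reached 1.5-fold in either direction, against 0.576%. With the probe sets of each gene averaged EGFR was at 0.25 on the log2 scale, against 0.37 for HBEGF and for ERRFI1, and only 2 members reached 1.2-fold higher. BTC was then at -0.49, past 1.2-fold lower, with 1 of its 2 probe sets under the floor.

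HBEGF, ERRFI1 and EGFR are the members with the largest positive differences, so the bases before their transcription starts are shown. Each line gives the 250 bases upstream of a start in RefSeq, build GRCh38.p14, read 5′ to 3′ on the gene's own strand. Capitals mark matches to the AP-1 site TGANTCA, the cAMP response element TGACGTCA, the GC box GGGCGG or the TATA box TATAAA, searched on both strands. Matches to different motifs did not overlap in these windows. HBEGF lies at chr5:140346604-140346853 on the minus strand, ERRFI1 at chr1:8026310-8026559 on the minus strand, and EGFR has 2 windows on the plus strand, at chr7:55018767-55019016 and at an internal start, chr7:55109589-55109838.
HBEGF: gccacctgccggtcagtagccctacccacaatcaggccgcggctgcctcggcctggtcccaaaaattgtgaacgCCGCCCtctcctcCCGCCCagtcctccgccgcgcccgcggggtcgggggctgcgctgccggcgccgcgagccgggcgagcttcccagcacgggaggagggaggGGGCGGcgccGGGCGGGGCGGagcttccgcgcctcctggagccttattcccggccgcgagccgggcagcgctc
ERRFI1: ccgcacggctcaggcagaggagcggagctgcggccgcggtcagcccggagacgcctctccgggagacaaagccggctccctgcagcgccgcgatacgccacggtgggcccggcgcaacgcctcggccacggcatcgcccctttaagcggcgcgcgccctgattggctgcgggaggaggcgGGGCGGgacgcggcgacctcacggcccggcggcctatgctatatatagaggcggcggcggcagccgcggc
EGFR, first start: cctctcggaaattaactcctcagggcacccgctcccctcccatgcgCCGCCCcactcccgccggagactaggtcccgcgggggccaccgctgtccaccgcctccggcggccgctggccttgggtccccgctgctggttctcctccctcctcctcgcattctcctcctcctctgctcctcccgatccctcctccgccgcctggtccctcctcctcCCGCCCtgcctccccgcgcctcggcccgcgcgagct
EGFR, internal start: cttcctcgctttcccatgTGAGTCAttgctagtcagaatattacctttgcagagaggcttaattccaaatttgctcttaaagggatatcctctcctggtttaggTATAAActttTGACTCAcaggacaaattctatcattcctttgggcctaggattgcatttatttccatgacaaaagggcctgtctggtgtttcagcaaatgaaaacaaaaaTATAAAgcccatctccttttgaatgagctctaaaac
The windows of HBEGF, ERRFI1 and the first EGFR start were rich in G and C, at 76.4%, 75.2% and 73.6%, and the internal EGFR window was at 38.8%. HBEGF held 5 GC boxes, 2 of which overlap by a base, ERRFI1 held 1 and the first EGFR window 2. The GC box was present in 42.6% of 35116 RefSeq windows of the same length. Of the 10 windows found for the members 5 held it, windows of TGFA and AREG among them. There were 2 AP-1 sites in the internal EGFR window, 232 and 136 bases before its start, and 6.57% of all windows held such a site. Of the 10 member windows 2 held one, the other being that of ERBB2, which differed little between the arrays. The cAMP response element was in none of these 4 windows, in 1 of the 10 member windows (AREG) and in 1.65% of all windows. The internal EGFR window also held 2 TATA boxes. This motif was present in 3 of the 10 member windows, those of EREG and AREG included, and in 10.7% of all windows. Such matches describe letters and not binding.

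Of the receptors, EGFR was the one that stood higher with fluphenazine. Its probe set 224999_at had a log2 signal of 10.45 on the fluphenazine array and 10.01 on the DMSO array, a difference of 0.44. Probe set 201984_s_at gave 10.11 with fluphenazine and 9.73 with DMSO, a difference of 0.37. Probe set 201983_s_at gave 10.08 with fluphenazine and 9.99 with DMSO, a difference of only 0.09. All 3 were above the floor and higher with fluphenazine, but they were up to 0.35 apart, more than the pooled SD of 0.13 between probe sets of one gene over 3668 genes. The size of the EGFR difference is therefore uncertain by the choice of probe set.

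The other 6 EGFR probe sets were under the floor, at 3.88 to 6.01 with fluphenazine and 3.58 to 5.78 with DMSO, and differed by 0.04 to 0.42. The largest of these was 211607_x_at, at 5.89 with fluphenazine and 5.48 with DMSO. The suffix _x_at marks probes that can match other transcripts. All 9 probe sets of EGFR were thus higher with fluphenazine. Among 46 genes with at least 9 probe sets EGFR was the only one for which all were higher (2.17%), which is a description of the same 2 RNA preparations and not of 9 independent measurements. By its probe set of highest signal 96 of 9196 genes above the floor, EGFR included, differed by at least as much upward.

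The spread of the whole array at like signal gives a scale for these values. Over the 1436 probe sets within 0.5 log2 units of 224999_at the differences had a robust SD (scaled from the median absolute deviation) of 0.14, so this EGFR probe set lay 3.15 such SDs above 0. The same ratio was 2.75 for 201984_s_at and 0.65 for 201983_s_at. With 1 array per treatment this spread mixes culture, labelling and treatment differences and gives no variation between replicates.

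ERBB2 (HER2), the receptor that has no ligand of its own and serves as partner of the others, was near even on both arrays. Its probe set above the floor, 216836_s_at, had a log2 signal of 7.63 with fluphenazine and 7.72 with DMSO, a difference of -0.08. The probe sets under the floor gave 4.09 with fluphenazine and 4.07 with DMSO for 234354_x_at, and 3.12 with fluphenazine and 3.40 with DMSO for 210930_s_at. Only the last of these, at -0.29, was outside the robust SD of probe sets of like signal, 0.23.

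ERBB3 (HER3), whose kinase domain is nearly inactive and which recruits PI3 kinase, was slightly lower in all 5 of its probe sets. Probe set 226213_at gave 8.55 with fluphenazine and 8.60 with DMSO, and 202454_s_at gave 7.05 with fluphenazine and 7.20 with DMSO. Their differences were -0.04 and -0.15. The 3 probe sets under the floor differed by -0.21 to -0.08, and none of the 5 went beyond the robust SD at its signal.

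**Figure D1:**
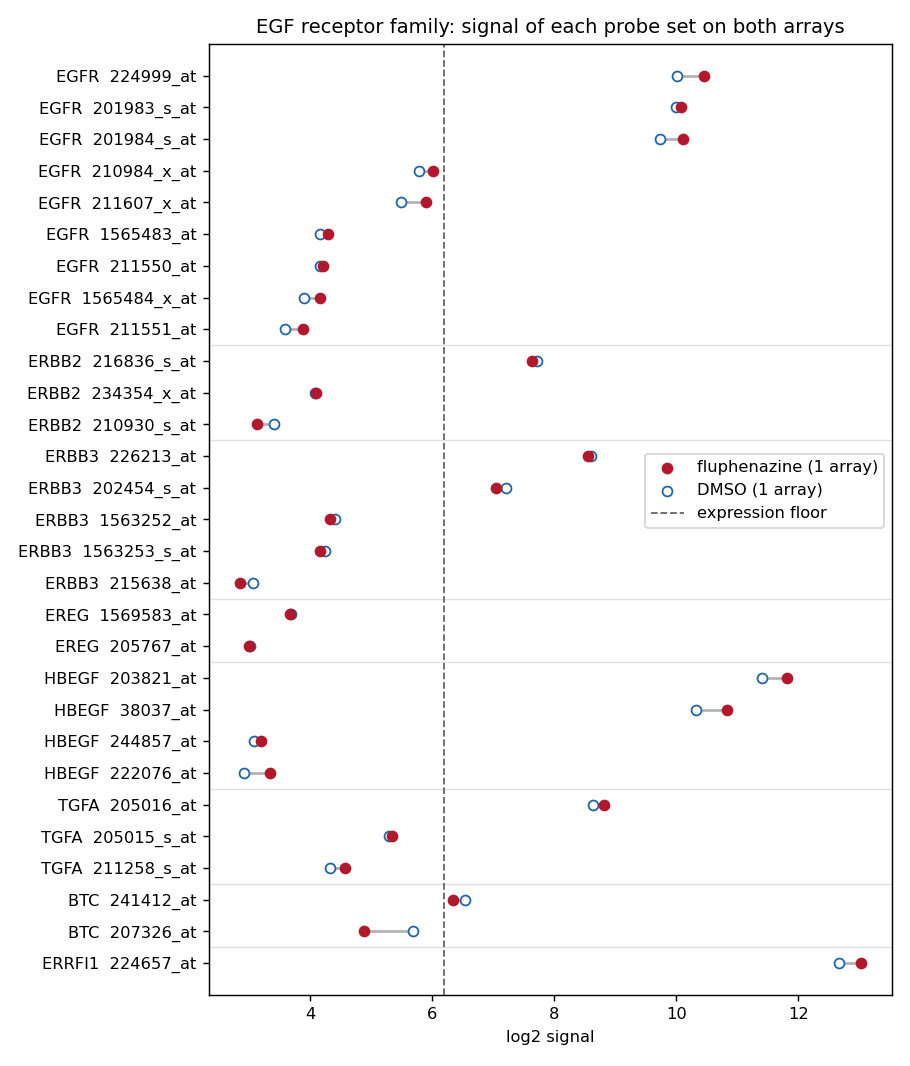
Log2 signal (horizontal axis) of each of the 29 probe sets of the 8 measured members on the fluphenazine array (filled) and the DMSO array (open). The dashed line is the expression floor of 6.19, and all 9 EGFR and all 4 HBEGF probe sets lie to the right of their DMSO values.

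Of the ligands, HBEGF, a heparin-binding growth factor that activates EGFR and ERBB4, had the largest differences above the floor. Probe set 203821_at had a log2 signal of 11.81 on the fluphenazine array and 11.41 on the DMSO array, a difference of 0.40. A second probe set, 38037_at, gave 10.83 with fluphenazine and 10.32 with DMSO, a difference of 0.51 or 1.43-fold. Both were higher with fluphenazine and were 0.11 apart, within the pooled SD of 0.13 between probe sets of one gene. They lay 3.44 and 3.71 robust SDs above 0 at their signal. The 2 dim probe sets of HBEGF were also higher, 222076_at at 3.34 with fluphenazine and 2.91 with DMSO, and 244857_at at 3.19 with fluphenazine and 3.07 with DMSO. Of all genes above the floor 1.34% differed by at least as much upward as 203821_at.

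TGFA, which like EGF binds EGFR, was higher by less. Its probe set above the floor, 205016_at, gave 8.82 with fluphenazine and 8.64 with DMSO, a difference of 0.18. This was 1.25 robust SDs at its signal, and 10.8% of genes above the floor differed by at least as much upward. The dim probe sets gave 5.34 with fluphenazine and 5.29 with DMSO for 205015_s_at, and 4.56 with fluphenazine and 4.32 with DMSO for 211258_s_at. All 3 TGFA probe sets were higher with fluphenazine, by small amounts.

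BTC (betacellulin), which binds both EGFR and ERBB4, was lower in both of its probe sets, which disagreed in size. Probe set 241412_at, just above the floor, had a log2 signal of 6.34 with fluphenazine and 6.53 with DMSO, a difference of -0.19. The dimmer probe set, 207326_at, gave 4.88 with fluphenazine and 5.67 with DMSO, a difference of -0.79 or 1.73-fold. It was under the floor, and stood at -3.76 robust SDs among probe sets of like signal. It was the only 1 of the 29 member probe sets past 1.5-fold, where 1.72% of 37145 probe sets were. Averaging both put BTC at -0.49.

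EREG (epiregulin), another ligand of EGFR and ERBB4, was under the floor in both probe sets. They gave 3.66 with fluphenazine and 3.67 with DMSO for 1569583_at, and 2.99 with fluphenazine and 3.01 with DMSO for 205767_at. The arrays were even for this gene, at a signal where expression cannot be told from background without a detection call. In the RefSeq order of genes, EREG lies next to AREG in a cluster with EPGN and BTC on chromosome 4.

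**Figure D2:**
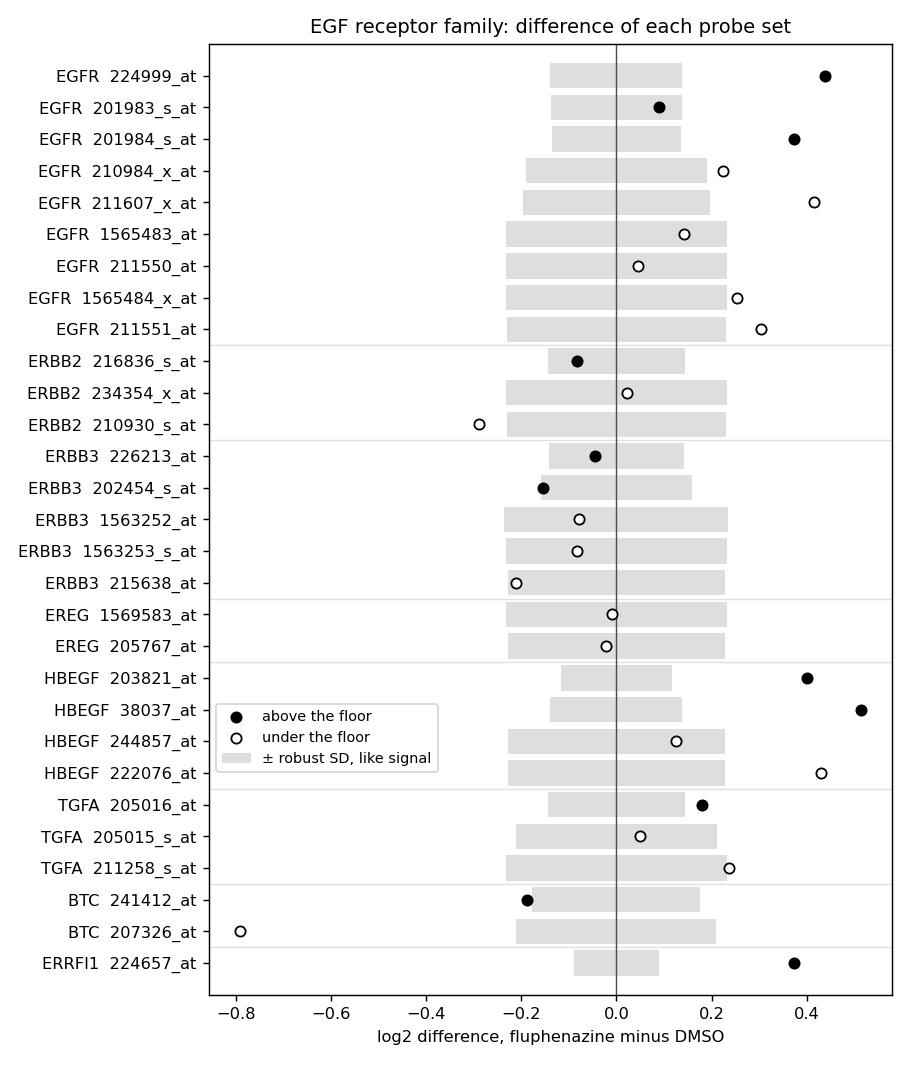
Log2 difference, fluphenazine minus DMSO (horizontal axis), of each member probe set, filled where above the floor and open where under it. Grey bars span ± 1 robust SD of all probe sets within 0.5 log2 units of the same signal, and the points of ERRFI1, both bright HBEGF probe sets and 2 bright EGFR probe sets lie well outside them on the higher side, and the dim BTC probe set 207326_at lies as far outside on the lower side.

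ERRFI1 was read by a single probe set, 224657_at, with a log2 signal of 13.03 on the fluphenazine array and 12.66 on the DMSO array. The difference of 0.37 lay 4.19 robust SDs above 0 among the 185 probe sets of like signal, whose robust SD was 0.09. No second probe set was there to compare it with. Of the genes above the floor 1.64% differed by at least as much upward.

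The 7 members above the floor covered a range of differences from 0.44 for EGFR to -0.19 for BTC. By the probe sets of highest signal, the largest gap among ERRFI1, HBEGF and EGFR was 0.06, less than the pooled probe set SD of 0.13. TGFA came next and was at least 0.19 below them. With the probe sets of each gene averaged, EGFR was at 0.25, HBEGF and ERRFI1 each at 0.37 and TGFA at 0.16. By the probe sets of highest signal ERBB3 and ERBB2 were 0.04 apart, ERBB2 and BTC 0.10, and ERBB3 and BTC 0.14. The pooled SD describes single probe sets and not gaps between them, so it does not set 0.14 apart from 0.10. The median over these 7 was 0.18, or 0.07 without any one of EGFR, HBEGF or ERRFI1, and that over all genes above the floor was -0.01; 4 of 7 members were higher with fluphenazine, against 48.2% of all genes.

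All probe sets of a gene lay on one side for a large minority of genes on these arrays. Of 7 members with several probe sets 6 had all of them on one side, where 40.9% of 9562 such genes had. EGFR, HBEGF and TGFA had all higher (19% of genes) and ERBB3, EREG and BTC all lower (21.9% of genes), and ERBB2 was split. Most genes in that comparison have fewer probe sets than EGFR, and no more is read from it.

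**Figure D3:**
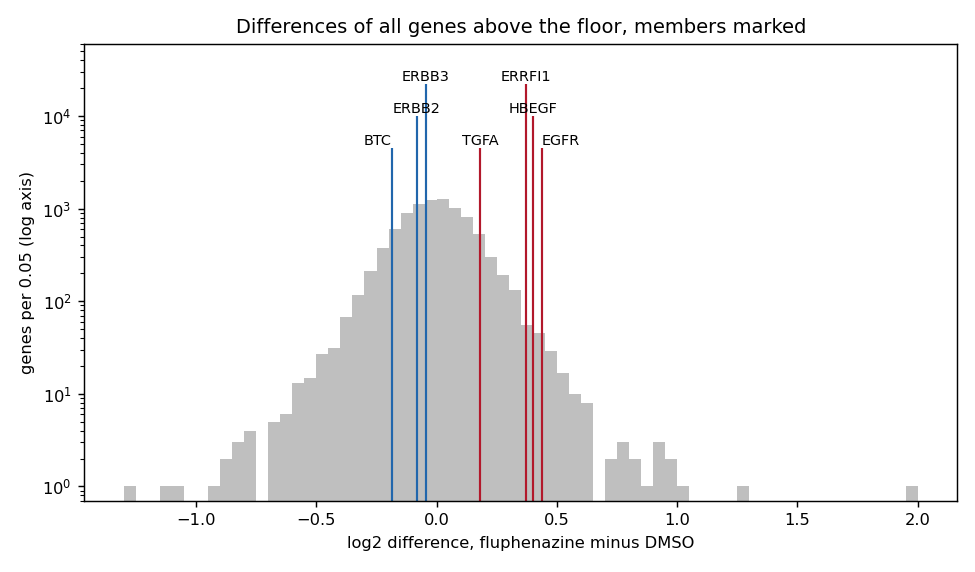
Number of genes above the floor (vertical log axis) by log2 difference, fluphenazine minus DMSO (horizontal axis), with the 7 members above the floor as lines. EGFR, HBEGF and ERRFI1 stand at 0.37 to 0.44 in the upper tail, and the other 4 lie between -0.19 and 0.18.

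The remaining genes of the family were under the floor. The receptor ERBB4 had a log2 signal of 3.09 with fluphenazine and 3.42 with DMSO. EGF itself gave 5.22 with fluphenazine and 5.35 with DMSO. The neuregulins, which are ligands of ERBB3 and ERBB4, were as dim: NRG1 at 4.87 with fluphenazine and 4.72 with DMSO, NRG2 at 4.24 with fluphenazine and 4.50 with DMSO, and NRG3 at 2.36 with fluphenazine and 2.20 with DMSO. EPGN and NRG4 are not analysed here.

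Genes that release and transport the ligands differed little. Of 10 measured genes, all above the floor, 8 were higher and 2 lower with fluphenazine, with a median difference of 0.08, and none reached 1.2-fold. Of all genes above the floor 48.2% were higher and 4.84% at least 1.2-fold higher. With the probe sets of each gene averaged the count was 6 higher and 4 lower and the median 0.01. ADAM17, the main sheddase of HBEGF and TGFA, differed by 0.22, and its 3 probe sets by 0.11 to 0.22. By the probe set of highest signal the 2 lower genes were ADAM12 at -0.20 and ADAM15 at -0.18. Of the 5 ADAM12 probe sets 3 were higher, and both of ADAM15 were lower. ADAM10, which sheds BTC and EGF, was at 0.10, and RHBDF2, an iRhom that carries ADAM17 to the surface, at 0.08. Averaged in this way, CNIH4 and CNIH1, relatives of a cargo receptor for TGF-alpha-like ligands in the fly, were at -0.02 and -0.03, and the direction of such small values depends on that choice.

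Adaptors and effectors of the receptors also differed little. Of 15 measured genes 14 were above the floor, 4 of them higher and 10 lower, with a median of -0.09, where 48.2% of all genes were higher. Averaged probe sets gave 3 higher and 11 lower and a median of -0.04. GRB2, the adaptor that links the receptors to RAS, was at -0.13 with all 3 of its probe sets lower. The 1 gene of 14 past 1.2-fold, where 4.84% of all genes were that much higher, was GAB1, a docking protein that carries EGFR signals to PI3 kinase, at 6.35 with fluphenazine and 6.02 with DMSO, a difference of 0.33, and 5 of its 6 probe sets were higher.

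Among genes of receptor down-regulation, RAB7A and STAM2 were higher. Of 20 measured genes 16 were above the floor, 11 higher and 5 lower, with a median of 0.13, where 48.2% of all genes were higher. Averaged probe sets gave 13 higher and 3 lower and a median of 0.06. RAB7A, a GTPase of late endosomes through which receptors reach the lysosome, gave 9.36 with fluphenazine and 8.95 with DMSO, a difference of 0.41. Its probe sets above the floor ranged from 0.05 to 0.41, and all 5 of its probe sets were higher. STAM2, a sorting protein of the endosome, was at 8.68 with fluphenazine and 8.40 with DMSO, a difference of 0.27. Its probe sets above the floor ranged from 0.05 to 0.40, and 4 of all 5 were higher. Averaged over the 5 it was at 0.21, short of 1.2-fold. The ubiquitin ligases CBL and CBLB, which tag EGFR for degradation, were at 0.21 and 0.16, but the CBL probe sets above the floor ranged from -0.52 to 0.21. By the probe set of highest signal RAB7A and STAM2 were the 2 of 16 genes at least 1.2-fold higher, where 4.84% of all genes were.

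**Figure D4:**
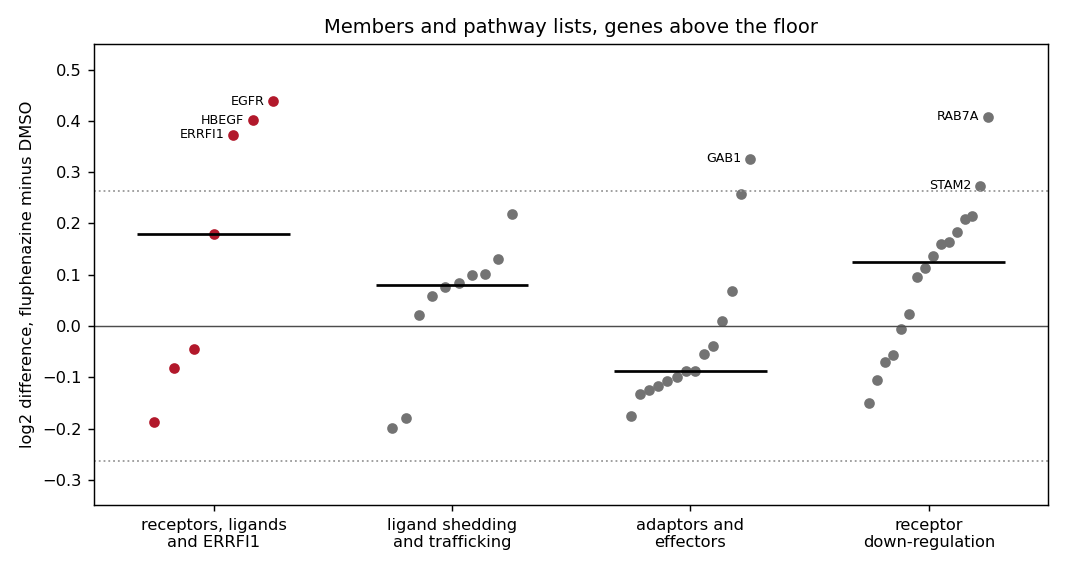
Log2 difference, fluphenazine minus DMSO (vertical axis), of each gene above the floor in the family and in 3 lists of pathway genes, with the list median as a bar and dotted lines at 1.2-fold. Only EGFR, HBEGF, ERRFI1, GAB1, RAB7A and STAM2 lie beyond the dotted lines.

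The arrays fitted the label in part. All 5 epithelial markers were above the floor, at 9.28 to 12.72 with fluphenazine and 9.70 to 12.69 with DMSO. One of them, the keratin KRT8, was 1.33-fold lower with fluphenazine, a difference of -0.42 and as large as those of EGFR, HBEGF and ERRFI1, and its part in the results was not tested. Of 14 blood, endothelial and fibroblast markers 12 were under it, all but PECAM1 (8.49 with fluphenazine, 8.76 with DMSO) and COL1A1 (8.33 on both arrays). KLK3, which PC3 cells are known to lack or express weakly, had a probe set above the floor, at 6.90 with fluphenazine and 6.93 with DMSO. The bacterial spike-in RNAs differed the opposite way from EGFR, HBEGF and ERRFI1: their median difference was -0.22 over 24 probe sets, each of them negative. The part of the spike-in difference in the results was not tested.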

How the data were processed

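Gene expression was measured on 2 Affymetrix arrays. The deposited table holds log2 signals, judged from their range of 1.60 to 14.28, and the submitters' processing notes name RMA, Transcriptome Analysis Console 3.1 and Affymetrix Expression Console 1.4 without saying what each did. The sorted columns differed by at most 0.13, so differences are relative to the rest of the array and show no change in total RNA. Background correction could not be varied here. Arrays give no depth, and their number limits the precision.

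Probe sets were named by the platform annotation, with symbols updated through RefSeq. Of 47693 probe sets 37145 named 1 gene and were used, control probe sets left out. The probe set with the highest mean of both arrays stood for a gene. Differences are fluphenazine minus DMSO. Robust SDs are scaled median absolute deviations. Named were all members, ERBB4, EGF, EPGN and the neuregulins, and from each pathway list up to 5 genes above the floor past 1.2-fold. Added after their values were seen were ADAM17, ADAM10, ADAM12, ADAM15, RHBDF2, CNIH4, CNIH1, GRB2, CBL, CBLB and the markers. The members and lists were chosen with earlier results of these data known. With 2 arrays a pattern is 1 difference, so no gene was named for likeness of pattern. The procedure was checked on simulated data. Python 3.11.15, numpy 2.4.6, pandas 2.3.3 and statsmodels 0.14.6 were used. No source used here gives the authors' genome build.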

Additional observations from a re-analysis of the deposited data

How the results depend on the processing

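Alternatives were 3 other scalings, other choices of a gene's probe set, other floors and thresholds. Of 87 probe set differences under quantile normalization, median centring and loess, 86 kept their sign and none moved by more than 0.03; the exception was the EREG probe set 1569583_at, at 0.002 when the arrays were centred on their medians. The count of members past 1.5-fold, 0 as reported, was 1 when every probe set was counted (BTC 207326_at) and 3 at a threshold of 1.2-fold. Averaging the probe sets of a gene moved BTC to -0.49 and EGFR to 0.25, and their medians gave the same for BTC and 0.25 for EGFR. The number of members at least 1.2-fold higher was then 2 in place of 3, a count added after the data were seen. The median over the members, 0.18 as reported, was 0.09 with EREG included and 0.28 without BTC, the member farthest from that median. Leaving out each other member in turn, added after the data were seen, gave 0.07 to 0.28, the lowest without EGFR, HBEGF or ERRFI1. No paired analysis was possible because there is 1 array per treatment, and leaving out an array leaves no comparison.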
